A study of Homo sapiens with 32 samples.

Results

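The change of each mRNA from normoxia (N) to hypoxia (H) in MDA-MB-231 cells was set against the same change in MCF10A cells, in total mRNA (T) and in polysomal mRNA (P), to find the genes whose response to low oxygen differed between the lines. All N and H libraries that had not received PP242 were used, which gave 16 of the 32 libraries in the series, 8 from each line and 2 biological replicates in each group. MCF10A is a non-tumourigenic mammary epithelial line, grown here with serum, EGF, hydrocortisone, cholera toxin and insulin. MDA-MB-231 is a triple-negative breast carcinoma line, grown with serum and no added growth factors. H cells spent 24 hours at 0.5% O2, and P is the RNA that sedimented with polysomes in a sucrose gradient. Each line is 1 established cell line with its own medium and its own deposited table, so line, medium and table cannot be told apart. Library totals ran from 18340916 to 46032327 expected counts, with a median of 34013480.

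Cells sense oxygen through prolyl hydroxylases, which mark the alpha subunits of the hypoxia-inducible factors (HIF) for destruction while oxygen is present. In low oxygen the alpha subunits persist, pair with ARNT and raise genes of glucose uptake, glycolysis, pH control, angiogenesis and mitophagy. Some of these targets, among them the hydroxylase EGLN3 itself, feed back on the factor. In breast carcinoma this programme is a well-known mark of poorly perfused tumour areas.

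Values are given as CPM (read counts scaled to a common library size), which compare a gene between libraries but not with other genes, and as log2 fold changes (log2FC) of H over N. The line difference is the log2FC in MDA-MB-231 minus that in MCF10A, so a negative value means a smaller rise or a larger fall in MDA-MB-231. Genes count as called at an adjusted p under 0.05 in edgeR's quasi-likelihood test, adjusted over 12374 protein-coding genes. These passed an expression filter in each line, which used the PP242 libraries as well, so some were near absent in the N and H libraries of a line.

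The oxygen labels were checked with CA9, a carbonic anhydrase, and NDRG1, both textbook HIF targets. CA9 in T was 11.9 and 9.86 CPM in the MCF10A N replicates and 573 and 787.9 CPM under H. In MDA-MB-231 it was 0.500 and 0.0476 CPM under N and 16.9 and 11.2 CPM under H. The H libraries lay above the N libraries in both lines, and the line difference in T, −0.47 on the log2 scale, was not called. NDRG1 likewise stood higher under H in both lines, with a line difference of −0.36 in T that was not called.

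The line labels were checked with lineage markers, as the median over the 8 libraries of each line. KRT5, a basal keratin, was at 1920 CPM in MCF10A and 0 in MDA-MB-231, and KRT14 was at 1486 and 0.173 CPM. CDH11, a mesenchymal cadherin, was at 0.266 CPM in MCF10A and 90.9 CPM in MDA-MB-231. Not every marker followed the labels. CDH1 (E-cadherin), the defining epithelial cadherin, was at 0.104 CPM in MCF10A and 0.294 CPM in MDA-MB-231, and TP63 was at 0.0391 and 0.0860 CPM, all close to absent. The epithelial adhesion molecule EPCAM was at 0.352 CPM in MCF10A and 12.5 CPM in MDA-MB-231, and the keratin KRT19 at 0.0685 and 206 CPM, so both were higher in MDA-MB-231. The mesenchymal filament VIM stood at 3451 CPM in MCF10A and 3422 CPM in MDA-MB-231. The fibroblast matrix genes DCN and SPARC were at 117 and 151 CPM in MCF10A and at 0.0119 and 0.265 CPM in MDA-MB-231. Of the leukocyte genes, CD3E, MS4A1 and ITGAM had a median of 0 in both lines and PTPRC was at 0.0457 CPM in MCF10A and 0.508 CPM in MDA-MB-231. CD68, a lysosomal protein of macrophages, was at 66.1 and 81.8 CPM and the monocyte receptor CD14 at 5.22 and 1.35 CPM. CD68 took the most reads of that list, and the summed level of the list in T was 44.3 and 48.8 CPM under N and 68.5 and 101.1 CPM under H in MCF10A, and between 73.6 and 81.0 CPM in the MDA-MB-231 libraries.

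Of 12 basal markers 9 were tested. KRT14, KRT15 and LAMB3 rose in MCF10A in both fractions (3 of 9, beside 3.02% of all genes tested in T and 3.32% in P). None of the 9 was called for H against N in MDA-MB-231, where only 0.299% and 0.331% of all genes rose. The summed level of the basal markers in T, which was not tested, was 3733 and 2605 CPM in the MCF10A N replicates and 5517 and 7270 CPM under H, with KRT5 taking the most reads under N and KRT14 under H. In MDA-MB-231 the sum was 379 and 357 CPM under N and 621 and 474 CPM under H, with LAMB3 taking the most reads. None of the 9 was called for the line difference in T or P, where their medians were −0.76 and −0.85 on the log2 scale. In bulk RNA, fewer cells of a type and less RNA per cell cannot be told apart, and the part of these markers in the results below was not tested.

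Some libraries stood apart. The SD of the log2 difference between replicates was 1.195 in the PP242-treated normoxic T group of MCF10A and 0.866 in its PP242-treated hypoxic T group. It was 0.781 and 0.696 in the MCF10A N and H groups of P, and between 0.330 and 0.665 in all other groups. The PP242 libraries entered the test through the shared estimate of spread, the scaling and the choice of genes tested. With them left out of the fit and the same genes tested, 30 genes were called in T, 24 of them among those reported here. In P, 60 were called, 39 of them shared.

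The fold changes under hypoxia were larger in MCF10A. In P its N and H replicates also differed more, with SDs of 0.781 and 0.696 against 0.458 and 0.448 in MDA-MB-231. How far this spread added to the fold changes in P was not tested. The median absolute log2FC over all genes tested in T was 0.27 for MCF10A and 0.171 for MDA-MB-231, and 0.301 and 0.211 for P. In T, 910 genes of MCF10A reached an absolute log2FC of at least 1, against 405 of MDA-MB-231, and in P these were 1056 and 429. In the same test across all 32 libraries, 374 genes rose and 156 fell in MCF10A T (4.28% of genes tested called), against 37 and 3 in MDA-MB-231 T (0.323%). For P, 411 rose and 192 fell in MCF10A (4.87%), against 41 and 4 in MDA-MB-231 (0.364%). Of the genes that rose in MDA-MB-231, 34 in T and 37 in P also rose in MCF10A, and none was called in opposite directions. These counts of calls depended on the estimate of spread. When each line was fitted alone, 146 genes rose and 15 fell in MCF10A T against 122 and 37 in MDA-MB-231 T, and in P the order turned, with 142 and 16 in MCF10A against 222 and 67 in MDA-MB-231.

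The line difference itself was called for 39 genes in T, 0.315% of genes tested, and for 53 genes in P, 0.428%. In T, 29 genes (0.234%) were lower and 10 (0.0808%) higher in MDA-MB-231. In P, 44 (0.356%) were lower and 9 (0.0727%) higher. At an unadjusted p under 0.05 there were 810 genes in T and 826 in P. The 4 H minus N differences between single libraries of one line lay wholly outside the 4 of the other line for every called gene, as they did for 23.6% of all genes in T and 16.6% in P. With 1 of the 8 libraries of a fraction left out, the counts dropped to between 9 and 18 in T and between 12 and 35 in P. In T, SLC37A2, SPRY1, CA12, EGLN3, VLDLR and GJB2 were called under all 24 alternative analyses. The 24 include the same fit read at other limits, an adjusted p under 0.10 or a difference of at least 1. Those readings could not lose these genes.

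Most of the called genes had a larger rise in MCF10A than in MDA-MB-231. This pattern held for 27 of 39 genes in T and for 44 of 53 in P. A gene near 0 under N could pass the expression filter in MCF10A through its hypoxic libraries alone, which favours such rises. NDNF and ASB2 were at 0 in both MCF10A N libraries of T. The 44 in P had a median log2FC of 2.68 in MCF10A and 0.16 in MDA-MB-231, and 18 of them had a log2FC below zero in MDA-MB-231. A larger fall in MCF10A made up 9 genes in T and 8 in P. A larger change in MDA-MB-231 was rare, with FAM156B, OTUB2 and PGBD5 in T and DNAH11 in P. In all, 25 genes were called in both fractions, 64.1% of the T calls and 47.2% of the P calls, and T and P libraries share numbers in their titles and were taken to come from the same cultures, so these are not independent calls.

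**Figure D1:**
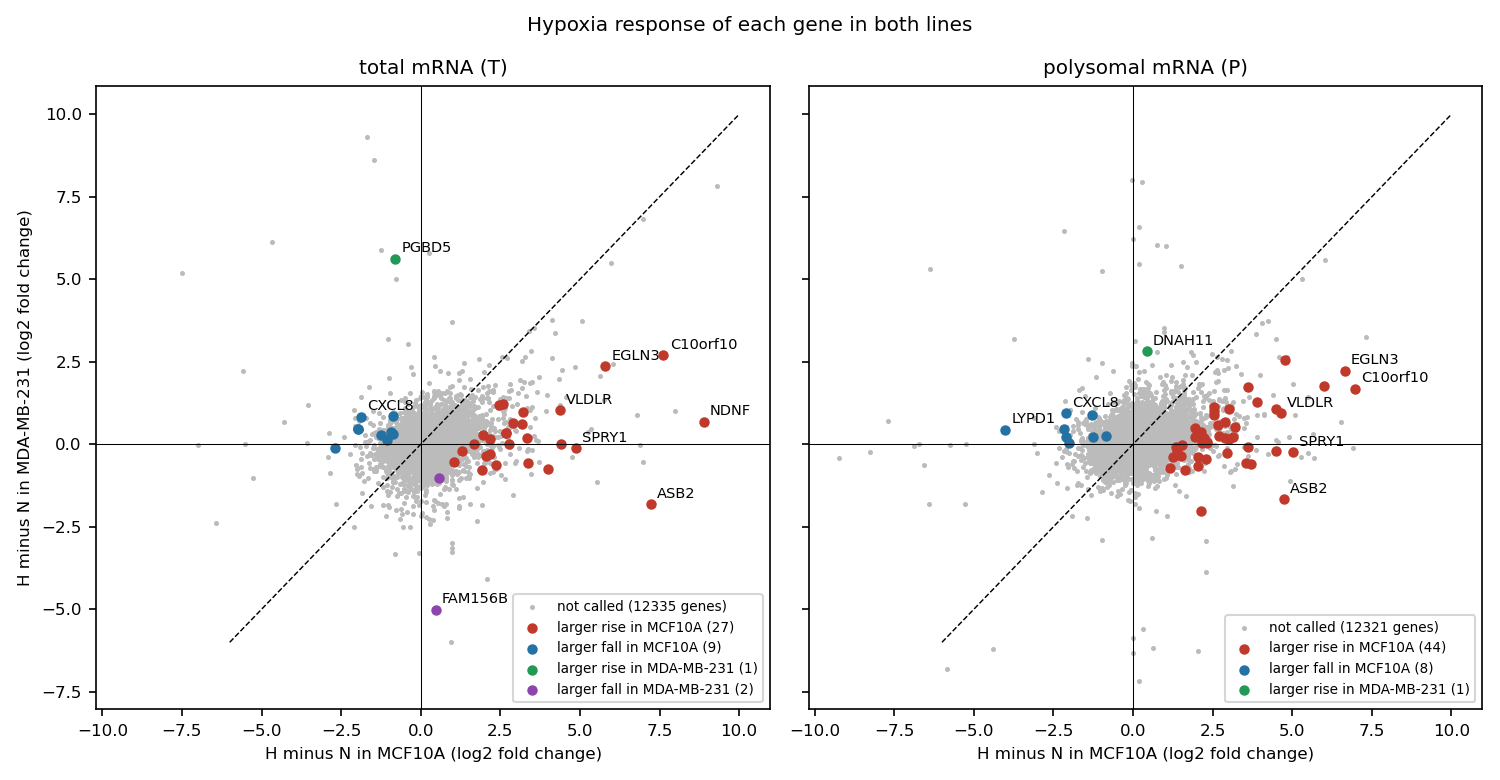
Log2 fold change of H over N for each of 12374 genes in MCF10A (x axis) and MDA-MB-231 (y axis), in T (left) and P (right). The dashed line marks equal responses and coloured points are the 39 and 53 genes called for the line difference, most of which lie to the right of the dashed line near a y value of 0.

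EGLN3, the prolyl hydroxylase that is both a HIF target and a brake on HIF, had the smallest adjusted p in P. In T it was 0.209 and 0.409 CPM in the MCF10A N replicates and 14.4 and 21.0 CPM under H, while in MDA-MB-231 it went from 4.41 and 4.86 CPM to 24.0 and 23.6 CPM. It rose in both lines, from a far lower N level in MCF10A, where the H libraries of T stayed somewhat below those of MDA-MB-231. The line difference of EGLN3 was −3.44 ± 0.46 (SE) in T and −4.42 ± 0.47 in P on the log2 scale (edgeR adjusted p 0.000748 and 9.72e-05). With counts thinned to the smallest library the EGLN3 value in P was −6.99. VLDLR, a lipoprotein receptor induced by HIF, showed the same layout. In T it was 1.07 and 1.23 CPM under N and 22.5 and 25.3 CPM under H in MCF10A, against 11.1 and 10.4 CPM and then 23.4 and 20.8 CPM in MDA-MB-231. The H levels of VLDLR in T overlapped between the lines and only its N levels differed. The VLDLR line difference was −3.33 ± 0.46 in T and −3.71 ± 0.46 in P (adjusted p 0.000953 and 0.000209).

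CA12, a membrane carbonic anhydrase that acidifies the cell surface, rose in MCF10A and was not called for H against N in MDA-MB-231. In T it was 17.1 and 21.8 CPM under N and 204 and 196 CPM under H in MCF10A. In MDA-MB-231 it was 7.54 and 3.90 CPM under N and 3.91 and 3.83 CPM under H, and these groups overlapped. The line difference of CA12 was −3.93 ± 0.50 in T and −4.13 ± 0.49 in P (adjusted p 0.000474 and 0.000152). CA9, of the same enzyme family, stood higher under H in both lines.

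Among 40 hypoxia targets listed for HIF, all were tested. In MCF10A 36 rose in each fraction, beside 3.02% of all genes tested in T and 3.32% in P. In MDA-MB-231 21 rose in T and 22 in P, beside 0.299% and 0.331% of all genes. The line difference was called for 4 of the 40 in T (CA12, EGLN3, VLDLR and STC2) and for 7 in P (CA12, EGLN3, VLDLR, LOX, TMEM45A, BNIP3L and ERO1A), all of them lower in MDA-MB-231, as were 0.234% and 0.356% of all genes tested. In each fraction 33 of the 40 (82.5%) were below zero, beside 46% of all genes in T and 49% in P. The median line difference over the list was −0.70 in T and −0.79 in P, beside 0.04 and 0.01 over all genes tested. The median response in T was 2.15 for MCF10A and 1.57 for MDA-MB-231, and 2.24 and 1.40 for P.

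STC2, a secreted glycoprotein hormone, was called in T alone. It was 93.2 and 108.8 CPM under N and 398 and 430 CPM under H in MCF10A, and near 1 CPM in MDA-MB-231, at 0.938 and 1.10 CPM under N and 0.811 and 0.742 CPM under H. Its line difference was −2.40 ± 0.46 in T (adjusted p 0.0228) and −1.65 in P (adjusted p 0.218). In P its MDA-MB-231 libraries stood higher under H, at 0.803 and 0.918 CPM against 0.503 and 0.658 CPM. STC1, its relative, was called in P with a difference of −2.22 ± 0.50 (adjusted p 0.0498).

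The members called in P alone included LOX, the enzyme that crosslinks collagen. In P it was 40.6 and 44.0 CPM under N and 396 and 631 CPM under H in MCF10A, and 22.4 and 28.1 CPM and then 88.1 and 79.0 CPM in MDA-MB-231. LOX rose in both lines, and by less in MDA-MB-231, with a difference of −1.88 ± 0.40 (adjusted p 0.0392). BNIP3L, a mitophagy receptor, differed by −1.64 ± 0.31 in P (adjusted p 0.0171), whereas its relative BNIP3 had a line difference of 0.10 in T and 0.27 in P and rose in both lines. ERO1A, which forms disulphide bonds in the endoplasmic reticulum, differed by −1.44 ± 0.31 in P (adjusted p 0.0392) and TMEM45A by −2.24 ± 0.45 (adjusted p 0.0278). In T, these 4 genes had differences of the same sign that were not called.

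A few targets had larger responses in MDA-MB-231, with no call. P4HA1, a collagen prolyl hydroxylase subunit, had a log2FC of 1.83 in MCF10A and 2.58 in MDA-MB-231 for T, a difference of 0.75 ± 0.30 (adjusted p 0.574). PFKFB3, which makes the activator of phosphofructokinase, had 0.42 and 1.57, a difference of 1.15 ± 0.48 (adjusted p 0.610). LDHA and PDK1, which steer pyruvate away from mitochondria, differed by −0.13 and 0.12 in T and rose in both lines.

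**Figure D2:**
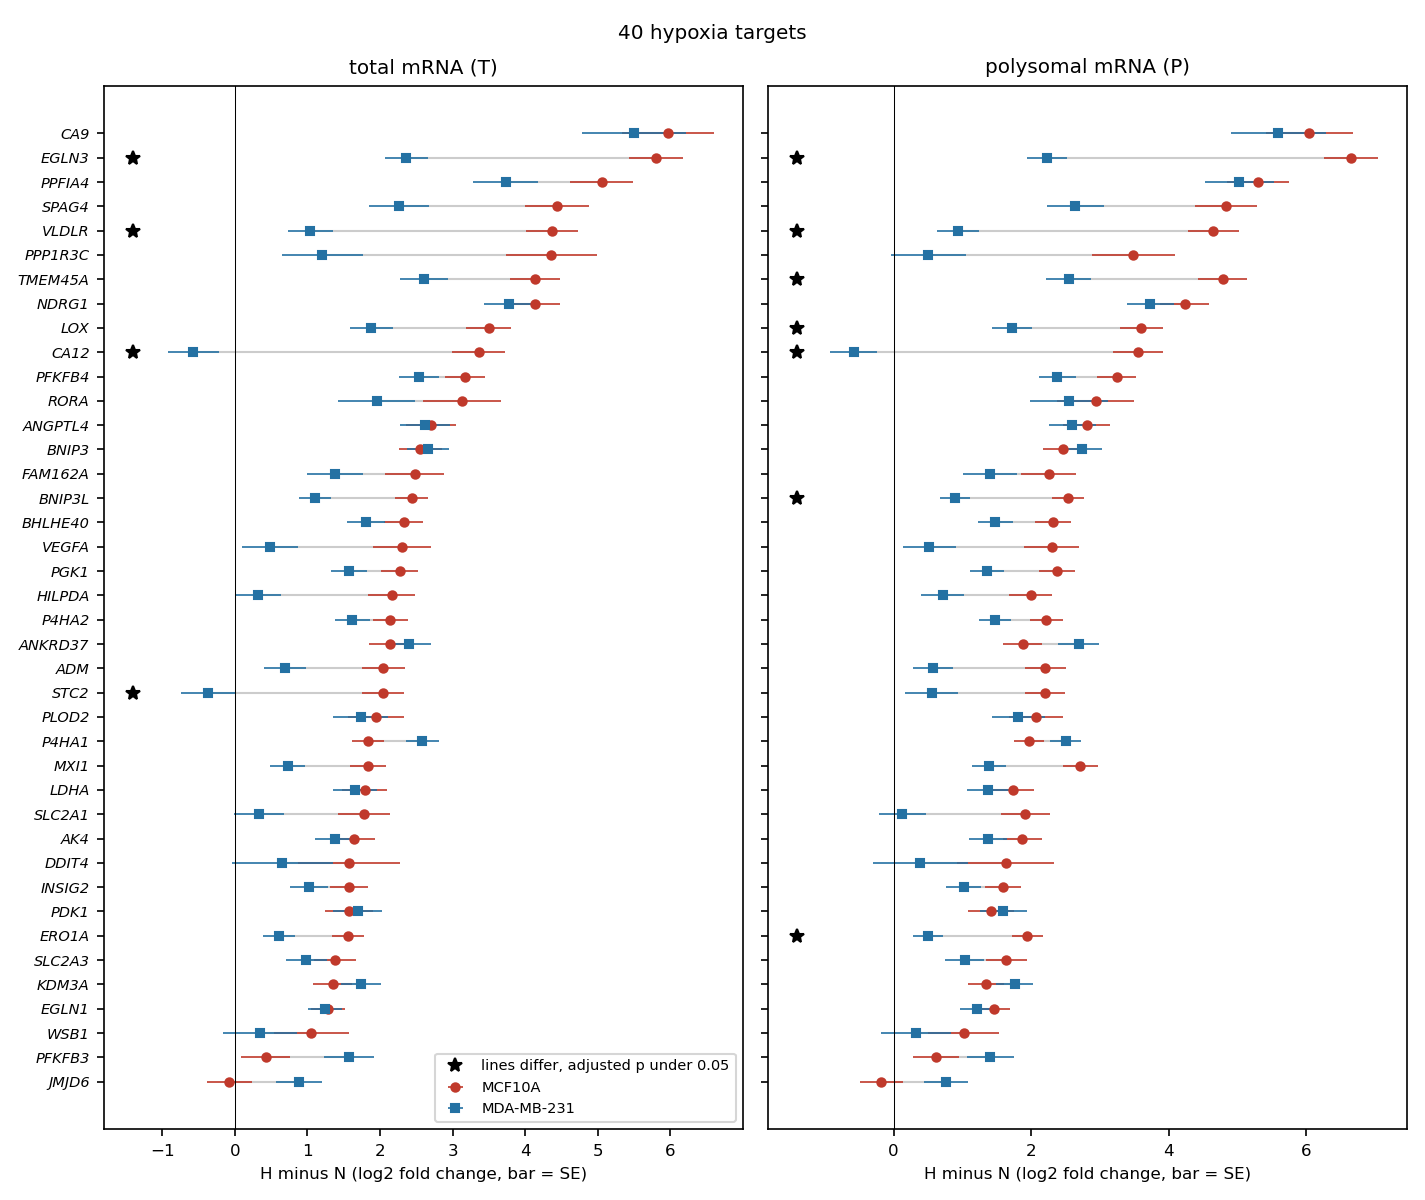
Log2 fold change of H over N for the 40 hypoxia targets in MCF10A (circles) and MDA-MB-231 (squares), with bars of 1 SE, in T (left) and P (right). Stars mark the 4 genes in T and the 7 in P whose responses differed between the lines, and in 33 of 40 genes in each fraction the MDA-MB-231 point lies to the left.

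Of the 9 HIF subunits and oxygen sensors tested, EGLN3 was the single call in each fraction. HIF1A mRNA had a log2FC of −0.25 in MCF10A and −1.56 in MDA-MB-231 for T, a difference of −1.31 ± 0.51 (adjusted p 0.541), and in P it fell in MDA-MB-231, with a log2FC of −1.81, while the line difference of −1.86 ± 0.51 was not called (adjusted p 0.162). EPAS1, which encodes HIF-2 alpha, had a difference of 1.21 ± 0.57 in T and 1.03 ± 0.57 in P (adjusted p 0.751 and 0.848). These differences of HIF1A and EPAS1 exceeded 1 on the log2 scale, with opposite signs, and did not pass the test.

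The promoters of the called genes were searched for the core letters that HIF binds, ACGTG or GCGTG on either strand, from 250 bases before to 50 bases after the start of each gene (RefSeq, GRCh38.p14). These letters also lie within the E-box CACGTG. Of the 67 genes called in T or P, 56 had a promoter in the table and 73.2% of these held the letters, as did 63.6% of the promoters of 10020 genes tested and 48.4% of all 27305 promoters. The share was 80.5% of 41 promoters for genes lower in MDA-MB-231 and 53.3% of 15 for genes that were higher. EGLN3 and GJB2 held none in this window, and a match describes the letters alone.

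Of the 25 genes called in both fractions, 23 had a promoter to search and 14 of these held the letters before the start. The share over all genes was not counted for this shorter stretch. Of the 14, 7 of the first 8 by adjusted p are shown to let the surroundings be read. The windows of 30 bases lie at chr4:123396733-123396762 (SPRY1, plus strand), chr15:63382063-63382092 (CA12, minus strand), chr9:2621744-2621773 (VLDLR, plus strand), chr7:45921310-45921339 (IGFBP3, minus strand), chr14:93976759-93976788 (ASB2, minus strand), chrX:129655081-129655110 (APLN, minus strand) and chr12:6914450-6914479 (ENO2, plus strand). All are upstream of the annotated start and are written 5′ to 3′ along the gene, with the 5 letters in capitals (CACGC or CACGT where the match is on the other strand).
SPRY1: atatcaccggagGCGTGtcctggagtggag
CA12: gcggatctcaccCACGCctgccagcagctc
VLDLR: cctcccgttgacCACGCcccctccggcccc
IGFBP3: cgccgttccgggGCGTGtcctgggccaccc
ASB2: aatgatgacatcACGTGagggccaaagctc
APLN: gggctgcagagtGCGTGcctggaggggggc
ENO2: acccgcgctcgtACGTGcgcctccgccggc

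Outside the hypoxia target list, SPRY1 and SLC37A2 had the smallest adjusted p in T. SPRY1, a feedback inhibitor of receptor tyrosine kinase signalling to ERK, was 0.149 and 0.265 CPM under N and 6.80 and 5.71 CPM under H in MCF10A T. In MDA-MB-231 T it was 34.7 and 23.6 CPM under N and 26.2 and 27.7 CPM under H, so these groups overlapped and all 4 libraries lay above the MCF10A H level. The SPRY1 line difference was −4.98 ± 0.60 in T and −5.27 ± 0.63 in P (adjusted p 0.000344 and 0.000152). The size in P rested on low counts, as the MCF10A N libraries of P held 0 and 11 counts and the difference was −10.63 without N replicate 2. SLC37A2, a sugar phosphate transporter, was at 1.52 and 1.61 CPM and then 8.09 and 8.12 CPM in MCF10A T, against 59.9 and 50.8 CPM and then 40.7 and 30.4 CPM in MDA-MB-231 T. The H libraries of SLC37A2 lay above the N libraries in MCF10A and below them in MDA-MB-231, where the log2FC of −0.64 in T was not called. Its N level was many times higher in MDA-MB-231 and its line difference was −3.01 ± 0.33 in T and −2.76 ± 0.33 in P (adjusted p 0.000114 and 0.000152).

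GJB2 (connexin 26), a gap junction subunit, and TXNIP, an inhibitor of thioredoxin and of glucose uptake, went the same way. GJB2 in T was 4.81 and 3.97 CPM under N and 55.5 and 85.6 CPM under H in MCF10A, and 3.03 and 2.76 CPM and then 1.88 and 1.56 CPM in MDA-MB-231. Its line difference was −4.75 ± 0.67 in T and −4.32 ± 0.66 in P (adjusted p 0.0012 and 0.00317), and its MDA-MB-231 log2FC of −0.74 in T was not called. TXNIP in T was 88.2 and 88.0 CPM under N and 570 and 551 CPM under H in MCF10A, and 171 and 139 CPM and then 195 and 196 CPM in MDA-MB-231. The TXNIP line difference was −2.33 ± 0.45 in T and −2.87 ± 0.45 in P (adjusted p 0.0228 and 0.00415).

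**Figure D3:**
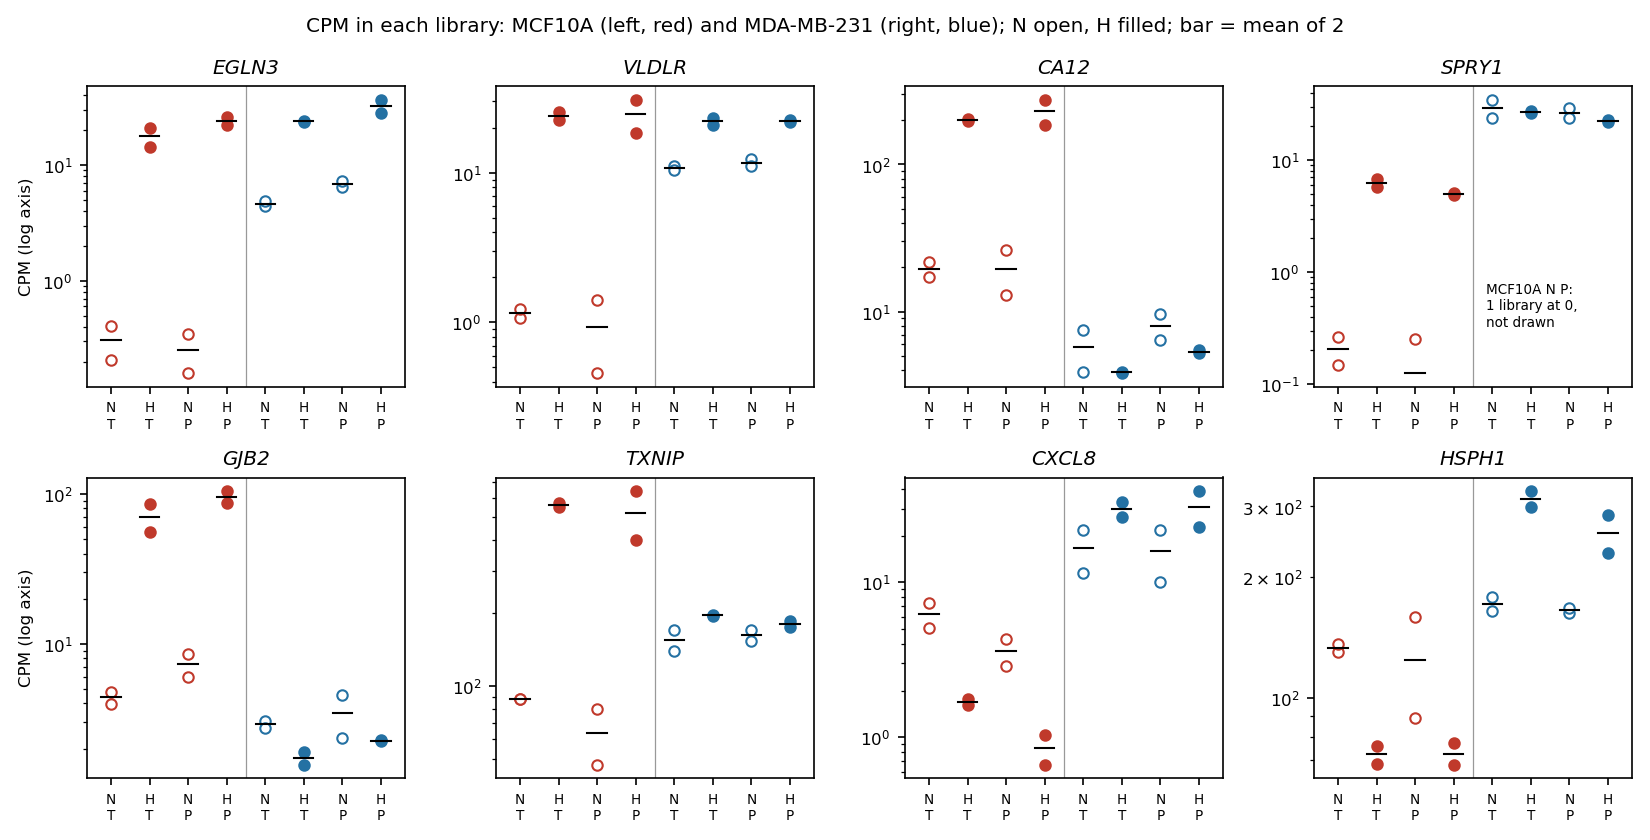
CPM on a log axis in each library for 8 called genes, with N open and H filled, T and P side by side, MCF10A on the left and MDA-MB-231 on the right of each panel, and bars at the mean of 2 libraries. EGLN3 and VLDLR start lower in MCF10A and end close to the MDA-MB-231 level, CA12, GJB2 and TXNIP end above it, SPRY1 stays below it, and CXCL8 and HSPH1 fall in MCF10A T.

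The called genes IGFBP3, RNASE4 and TIMP3 encode secreted or matrix proteins, and were not tested as a group. IGFBP3, the main circulating IGF-binding protein, was 227 and 252 CPM under N and 782.3 and 1086 CPM under H in MCF10A T, and 71.7 and 63.1 CPM and then 82.5 and 81.6 CPM in MDA-MB-231 T. The H libraries lay above the N libraries in both lines, with a log2FC of 1.96 in MCF10A and of 0.28 in MDA-MB-231, the latter not called, and the IGFBP3 line difference was −1.68 ± 0.29 in T and −1.73 in P (adjusted p 0.00875 and 0.00796). RNASE4, a secreted ribonuclease, differed by −2.76 ± 0.46 in T and −2.68 in P (adjusted p 0.00743 and 0.00864). TIMP3, a matrix-bound inhibitor of metalloproteinases, was called in P, where it was 25.4 and 23.0 CPM and then 148 and 168 CPM in MCF10A, and between 312 and 598 CPM in all 4 MDA-MB-231 libraries, whose groups overlapped. Its difference was −2.44 ± 0.53 (adjusted p 0.0405).

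The calls in both fractions also held APLN, the ligand of the apelin receptor, PCOLCE2, which assists procollagen processing, and PLXNB3, a semaphorin receptor, named here after their values were seen. APLN differed by −2.25 in T and −1.93 in P, PCOLCE2 by −2.33 and −2.25, and PLXNB3 by −2.48 and −2.28. All 3 rose in MCF10A in both fractions, and none was called for H against N in MDA-MB-231. APLN nevertheless went from 5.19 and 5.52 CPM under N to 11.04 and 10.00 CPM under H in MDA-MB-231 T, a log2FC of 0.98 (adjusted p 0.147), and had a log2FC of 1.08 in P (adjusted p 0.0698).

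NDNF, a secreted neurotrophic factor, was at 0 in both MCF10A N libraries of T and at 1.47 and 2.03 CPM under H, which is at least 21.6-fold higher against a floor of 3 counts in each library. In MDA-MB-231 T it was 2.44 and 1.76 CPM under N and 3.96 and 2.81 CPM under H. The line difference of NDNF was called in T (adjusted p 0.00249) and not in P (−3.19, adjusted p 0.0756), where the MCF10A N libraries held 0.115 and 0.0911 CPM. ASB2, a ubiquitin ligase subunit, was likewise at 0 in the MCF10A N libraries of T and rose at least 6.83-fold, to 0.309 and 0.795 CPM, while in MDA-MB-231 T it went from 0.688 and 0.571 CPM under N to 0.167 and 0.195 CPM under H, so the H libraries lay below the N libraries there, with a log2FC of −1.80 that was not called. The floor of 3 counts is a set limit, and the fold changes against it carry no estimate of the spread between replicates.

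C10orf10 (DEPP1), a FOXO target, was 0.0597 and 0.0722 CPM under N and 9.58 and 18.04 CPM under H in MCF10A T. In MDA-MB-231 T it was 0.657 and 0.238 CPM and then 3.82 and 2.34 CPM. C10orf10 rose in both lines in T, with a line difference of −4.91 ± 0.82 (adjusted p 0.00743), and its difference in P was −5.28 ± 0.73 (adjusted p 0.000895). RASSF2, a RAS-association domain protein, was called in T at −4.39 ± 0.71 (adjusted p 0.00629) and was −2.44 in P (adjusted p 0.0893). The MCF10A N libraries of T held 2 and 1 counts of RASSF2 and 2 and 3 of C10orf10. Both differences in T therefore rest on few counts. ENO2, the neuronal enolase, rose in both lines and differed by −1.34 ± 0.26 in T and −1.52 ± 0.26 in P (adjusted p 0.0228 and 0.00888). It was the single call in each fraction among 23 genes of glucose uptake and glycolysis.

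JUN and IL1A were called in P alone. JUN, a subunit of the AP-1 factor, was 102.1 and 99.9 CPM under N and 412 and 481 CPM under H in MCF10A P, and 180 and 156 CPM and then 236 and 200 CPM in MDA-MB-231 P. Its difference was −1.77 ± 0.37 in P (adjusted p 0.036) and −1.38 in T (adjusted p 0.168). IL1A, an inflammatory cytokine, was 0.229 and 0.114 CPM and then 4.66 and 2.87 CPM in MCF10A P, and between 0.201 and 0.232 CPM in the MDA-MB-231 P libraries. Its difference was −4.70 ± 1.02 in P (adjusted p 0.0392), a value that rests on few counts, with 6 and 5 in the MCF10A N libraries and 6 to 8 in those of MDA-MB-231.

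The smaller group of called genes fell in MCF10A. CXCL8 (interleukin 8), a neutrophil chemokine, was 7.40 and 5.07 CPM under N and 1.62 and 1.77 CPM under H in MCF10A T. In MDA-MB-231 T it was 21.8 and 11.5 CPM and then 33.0 and 26.5 CPM. CXCL8 fell in MCF10A, and its MDA-MB-231 log2FC of 0.84 was not called. The line difference was 2.71 ± 0.56 in T and 3.06 ± 0.59 in P (adjusted p 0.0378 and 0.0203).

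HSPH1, a large heat shock protein that acts as a nucleotide exchange factor, was 130 and 136 CPM under N and 75.9 and 68.5 CPM under H in MCF10A T, and 178 and 165 CPM and then 328 and 299 CPM in MDA-MB-231 T. The libraries separated in opposite directions in the 2 lines. HSPH1 fell in MCF10A, and its MDA-MB-231 log2FC of 0.87 in T was not called. Its difference was 1.75 ± 0.32 in T (adjusted p 0.017) and 1.42 in P (adjusted p 0.0566). TINAGL1, a matricellular protein, was 4.87 and 6.25 CPM and then 1.13 and 1.74 CPM in MCF10A T, and 69.0 and 70.0 CPM and then 98.4 and 92.3 CPM in MDA-MB-231 T. TINAGL1 differed by 2.41 ± 0.47 in T and 2.64 ± 0.47 in P (adjusted p 0.0228 and 0.012).

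WWC1 (KIBRA), an upstream regulator of the Hippo pathway, and RAB3IP, an exchange factor for RAB8, were called in both fractions as well. WWC1 differed by 1.53 ± 0.30 in T and 1.46 ± 0.30 in P (adjusted p 0.0228 and 0.0312), and RAB3IP by 1.18 ± 0.24 and 1.09 ± 0.24 (adjusted p 0.028 and 0.0392). Called in T alone were CHRDL1, a BMP antagonist, at 2.57 ± 0.45, and ABHD3, STAMBPL1 and RGS7 at 1.30, 1.204 and 2.42. Called in P alone were FAM213A at 2.31, TMEM156 at 2.06, LYPD1 at 4.46 and TMCC2 at 2.15. The MCF10A H libraries of P held 0 and 7 counts of LYPD1, and without H replicate 2 its difference was 9.41 and not called. FAM213A held 6 and 16 counts there and had a difference of 1.07 with counts thinned to the smallest library (adjusted p 0.925). All of these fell in MCF10A, and none was called for H against N in MDA-MB-231.

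Only 4 called genes had the larger change in MDA-MB-231. DNAH11, an axonemal dynein heavy chain, was 1.55 and 1.60 CPM under N and 12.4 and 10.2 CPM under H in MDA-MB-231 P, and 0.649 and 0.957 CPM and then 0.899 and 1.28 CPM in MCF10A P, where the groups overlapped. Its line difference was 2.40 ± 0.51 in P (adjusted p 0.035) and 1.61 in T (adjusted p 0.303), where MDA-MB-231 libraries went from 1.85 and 2.43 CPM to 10.4 and 9.22 CPM. OTUB2, a deubiquitinase, went from 19.4 and 15.4 CPM to 9.09 and 8.13 CPM in MDA-MB-231 T and from 2.06 and 2.24 CPM to 2.91 and 3.502 CPM in MCF10A T, a difference of −1.59 (adjusted p 0.04).

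The other 2 of these calls are uncertain. FAM156B has a near-identical copy, FAM156A, and estimated counts can shift between the copies. In T it fell from 5.72 and 7.43 CPM to 0.286 and 0.0781 CPM in MDA-MB-231 (line difference −5.49 ± 0.93, adjusted p 0.00743), but in P the same line held 4.18 and 7.15 CPM and then 8.27 and 6.05 CPM, and the difference was −0.58. PGBD5, a domesticated transposase gene, was at 0 in both MDA-MB-231 N libraries of T and at 0.167 and 0.195 CPM under H, at least 1.53-fold higher against the floor. In MCF10A T it was 5.82 and 5.84 CPM under N and 3.79 and 2.88 CPM under H.

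The levels under N and H placed most of the rising genes in MCF10A below MDA-MB-231 before hypoxia. Of the 27 genes with a larger rise in MCF10A T, both MDA-MB-231 N libraries lay above both MCF10A N libraries for 17 and below them for 9, as for 37.9% and 42.2% of all genes tested. Under H, MCF10A lay above MDA-MB-231 for 19 of the 27 and below it for 5, beside 35.6% and 35.3% of all genes. In P, MDA-MB-231 lay higher under N for 28 of 44 and lower for 10 (33.2% and 34.9% of all genes), and under H MCF10A lay higher for 33 and lower for 9 (35.7% and 34.9%). The 9 genes with a larger fall in MCF10A T were all higher in MDA-MB-231 under N and under H. The N libraries enter both the level and the response, so these counts are descriptions.

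Translational efficiency (Te) was taken as the response in P relative to that in T, and asked whether the line difference itself changed between the fractions. No gene was called for the line difference in Te (0% of 12374 genes tested, smallest edgeR adjusted p 1), and 39 genes had an unadjusted p under 0.05. DESeq2 called 0 genes as well. A call in one fraction alone, as for STC2, NDNF, JUN or LOX, therefore does not show that the fractions differed.

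PP242, an inhibitor of the mTOR kinase, had been given at 2.5 µM for 3 hours to separate cultures, which allowed the line difference to be read again in other libraries. These were not independent of the first ones, since all shared one estimate of spread and some same-numbered libraries deviated from their group means together. For MCF10A T these deviations correlated at 0.73 (H with HPP) and 0.35 (N with NPP), and for MDA-MB-231 T at −0.19 and 0.36. In the PP242-treated libraries (HPP against NPP) the line difference was called for 0.711% of genes tested in T and 1.22% in P. All 39 genes called in T kept their sign there, as did all 53 called in P, beside 72.9% and 69.4% of all genes. Of them, 18 of 39 and 36 of 53 were called again under PP242. In T, SLC37A2 differed by −2.75, CA12 by −3.94, EGLN3 by −4.58, VLDLR by −4.07 and SPRY1 by −4.23 under PP242, all called. GJB2 (−1.93), TXNIP (−1.01), STC2 (−0.27) and CXCL8 (0.96) were not called under PP242 in T, and whether their values with and without PP242 differed was not tested.

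**Figure D4:**
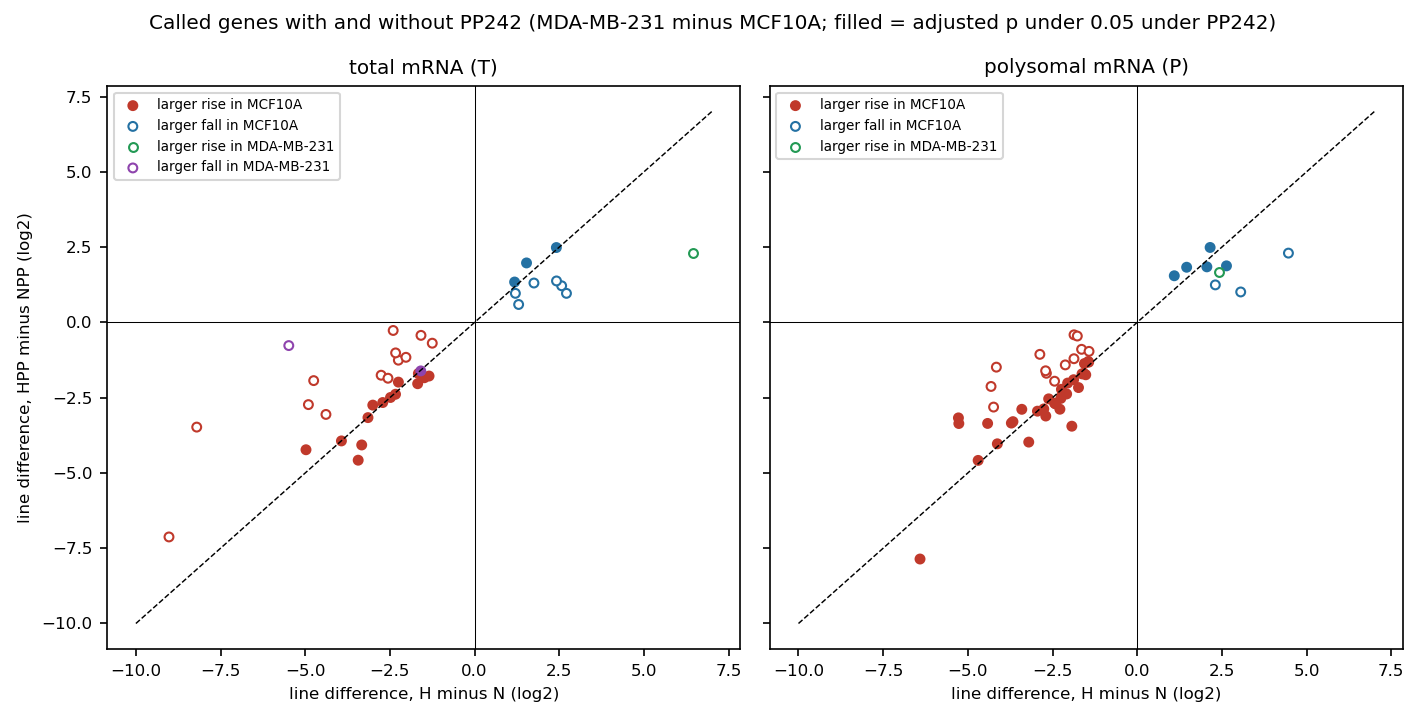
Line difference of each called gene without PP242 (x axis) and with PP242 (y axis), on the log2 scale, in T (left) and P (right), where the dashed line marks equal values and filled points were also called under PP242. All 39 and 53 points lie on the same side of zero on both axes, and 18 and 36 are filled.

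Other parts of the hypoxia programme were read as lists, some of which share genes. Of all genes tested, 46% in T and 49% in P were below zero. The line difference was called lower in MDA-MB-231 for 0.234% and 0.356% of all genes, and higher for 0.0808% and 0.0727%. The list medians moved with single libraries. Over 22 alternative analyses the sign of the median was kept throughout for 16 of 33 lists in T and for 14 of 33 in P. Glucose uptake and glycolysis (23 genes tested) had a median line difference of −0.38 in T and −0.48 in P, with 19 and 21 genes below zero and 1 call each. SLC2A1, the glucose transporter GLUT1, had −1.45 ± 0.49 in T (adjusted p 0.387), and it rose in MCF10A with a log2FC of 1.78 while its log2FC in MDA-MB-231 was 0.33. Glycogen and glucose storage (11 genes) had medians of −0.61 and −1.02, with 10 genes below zero and no call in each fraction. Its largest member difference was that of PPP1R3C, a glycogen-targeting phosphatase subunit, at −3.16 ± 0.83 in T (adjusted p 0.154). Hypoxic repressors, clock and mTORC1 brakes (16 genes) had medians of −1.01 and −1.15 with TXNIP as the call, and BHLHE41, a clock repressor, was at −2.40 ± 0.55 in T (adjusted p 0.0733).

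Several lists of secreted and structural genes also had medians below zero. Angiogenic and secreted factors (19 genes) had medians of −0.38 in T and −0.50 in P (−0.47 without 1 gene at the floor). Across the alternatives the angiogenic median ran from −0.62 to −0.06 in T, where the upper end left out the MCF10A H replicate 2, and from −1.05 to −0.36 in P, where the lower end left out the MCF10A N replicate 2. The angiogenic list held 2 calls in each fraction, beside 0.234% and 0.356% of all genes called lower in MDA-MB-231. VEGFA was at −1.82 in T (edgeR adjusted p 0.26). VEGFA was 40.8 and 35.3 CPM under N and 252 and 124 CPM under H in MCF10A T, and 262 and 218 CPM and then 299 and 371 CPM in MDA-MB-231 T. Mitophagy, lipid droplet and mitochondrial switch genes (10 tested) had −0.78 and −0.73 (−0.62 in P without 1 gene at the floor) with BNIP3L as the call in P. Collagen hydroxylases and lysyl oxidases (10 genes) had −0.52 and −0.57 with LOX as the call in P. Matrix proteases (15 genes) held TIMP3 in P. ERK feedback and immediate early genes (28 genes) had a median of 0.35 in T, with 20 of 28 above zero, and −0.01 in P, with 14 of 28 above zero, and held SPRY1 as the call in T and SPRY1 and JUN in P, all lower in MDA-MB-231. The 20 integrin and laminin genes, the 15 epithelial-mesenchymal genes and the 20 BMP and TGF-beta genes held no call. Of these, TGFB2 fell in MCF10A (log2FC −2.05 in T) and had a log2FC of 0.46 in MDA-MB-231, with a difference of 2.51 ± 0.73 (adjusted p 0.232).

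Cell cycle genes lay on the other side. All 24 mitosis genes had a positive line difference in T and 22 of 24 in P, beside 54% and 51% of all genes, with medians of 0.54 and 0.30 and no call. In T, the mitosis genes had a median log2FC of −0.56 for MCF10A and −0.01 for MDA-MB-231. Of 36 DNA replication genes, 34 in T and 28 in P were positive, with medians of 0.47 and 0.30 and no call. Of the 36, 11 in T and 12 in P fell in MCF10A, beside 1.26% and 1.55% of all genes tested. None was called in MDA-MB-231, where 0.0242% and 0.0323% of all genes fell, and when each line was fitted alone MDA-MB-231 had more falls over all genes than MCF10A in both fractions. GINS1, of the replicative helicase, was 55.4 and 51.9 CPM under N and 33.2 and 22.4 CPM under H in MCF10A T, and 46.1 and 47.0 CPM and then 35.5 and 47.4 CPM in MDA-MB-231 T, where the groups overlapped. Replication-dependent histones (27 genes) went the opposite way, with medians of −1.06 and −1.22 (−1.11 in P without 1 gene at the floor), and no call. Of the 27, 9 rose in MCF10A in each fraction, beside 3.02% and 3.32% of all genes. None was called in MDA-MB-231, where only 0.299% and 0.331% of all genes rose. Many histone genes are near-identical, and their mRNAs largely lack the poly(A) tail used for selection.

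Ribosomal protein genes (81 tested) had a median line difference of 0.11 in T and 0.56 in P, where 80 of 81 were positive and none was called. Their median log2FC in P was −0.67 for MCF10A and −0.12 for MDA-MB-231. The P value moved with single libraries. Without the MCF10A N replicate 1 of P the median was −0.09. Without the MCF10A H replicate 1 it was 1.107, and without the H replicate 2 it was 0.18. RPS29 in MCF10A P was 539 and 181 CPM under N and 323 and 71.9 CPM under H. The replicates therefore differed more than the conditions, although RPS29 was lower under H within each replicate number. The 78 respiratory chain genes behaved alike in P (median 0.41, from −0.14 without that N library to 0.96 without the H replicate 1). The 13 mitochondrially encoded genes had medians of 0.53 in T and −0.33 in P, with no call. Their direction was not stable, since the median ran from −0.02 without the MDA-MB-231 H replicate 2 to 0.88 in T, and from −0.84 to 0.78 without the MCF10A H replicate 1 in P, where it changed sign under 3 alternatives.

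Among the remaining lists, interferon response genes (27 tested) had −0.16 in T and −0.27 in P, sterol and fatty acid synthesis (27) −0.19 and −0.34, metallothioneins and iron (13) −0.16 and −0.36, histone lysine demethylases (14) −0.09 and −0.20, p53 targets (19) 0.19 and −0.01, and the Notch pathway (9) 0.16 and −0.04, with no call in any. The 4 cornified envelope genes tested, of 29 listed, had 0.10 and 0.20, the 10 mesenchymal-like carcinoma markers −0.24 in each fraction, and the 6 luminal markers 0.01 and 0.00, also with no call. The ATF4 pathway (19 genes) held VLDLR, endoplasmic reticulum chaperones (20) held ERO1A in P, and pH regulation (9) held CA12. Inflammatory cytokines (15) held CXCL8 in both fractions and IL1A in P, which differed in opposite directions. The other marker lists rested on 2 genes tested each, with no call. Their medians were −0.81 in T and −0.80 in P for leukocyte markers (CD68 and CD14), −0.81 and −1.09 for fibroblast and adipocyte markers (COL1A1 and PDGFRB) and −0.17 and −0.33 for endothelial markers (PECAM1 and KDR). COL1A1, a fibrillar collagen chain, had the value farthest from zero among these genes, at −1.49 ± 0.38 in T and −1.54 ± 0.38 in P (adjusted p 0.119 and 0.088).

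**Figure D5:**
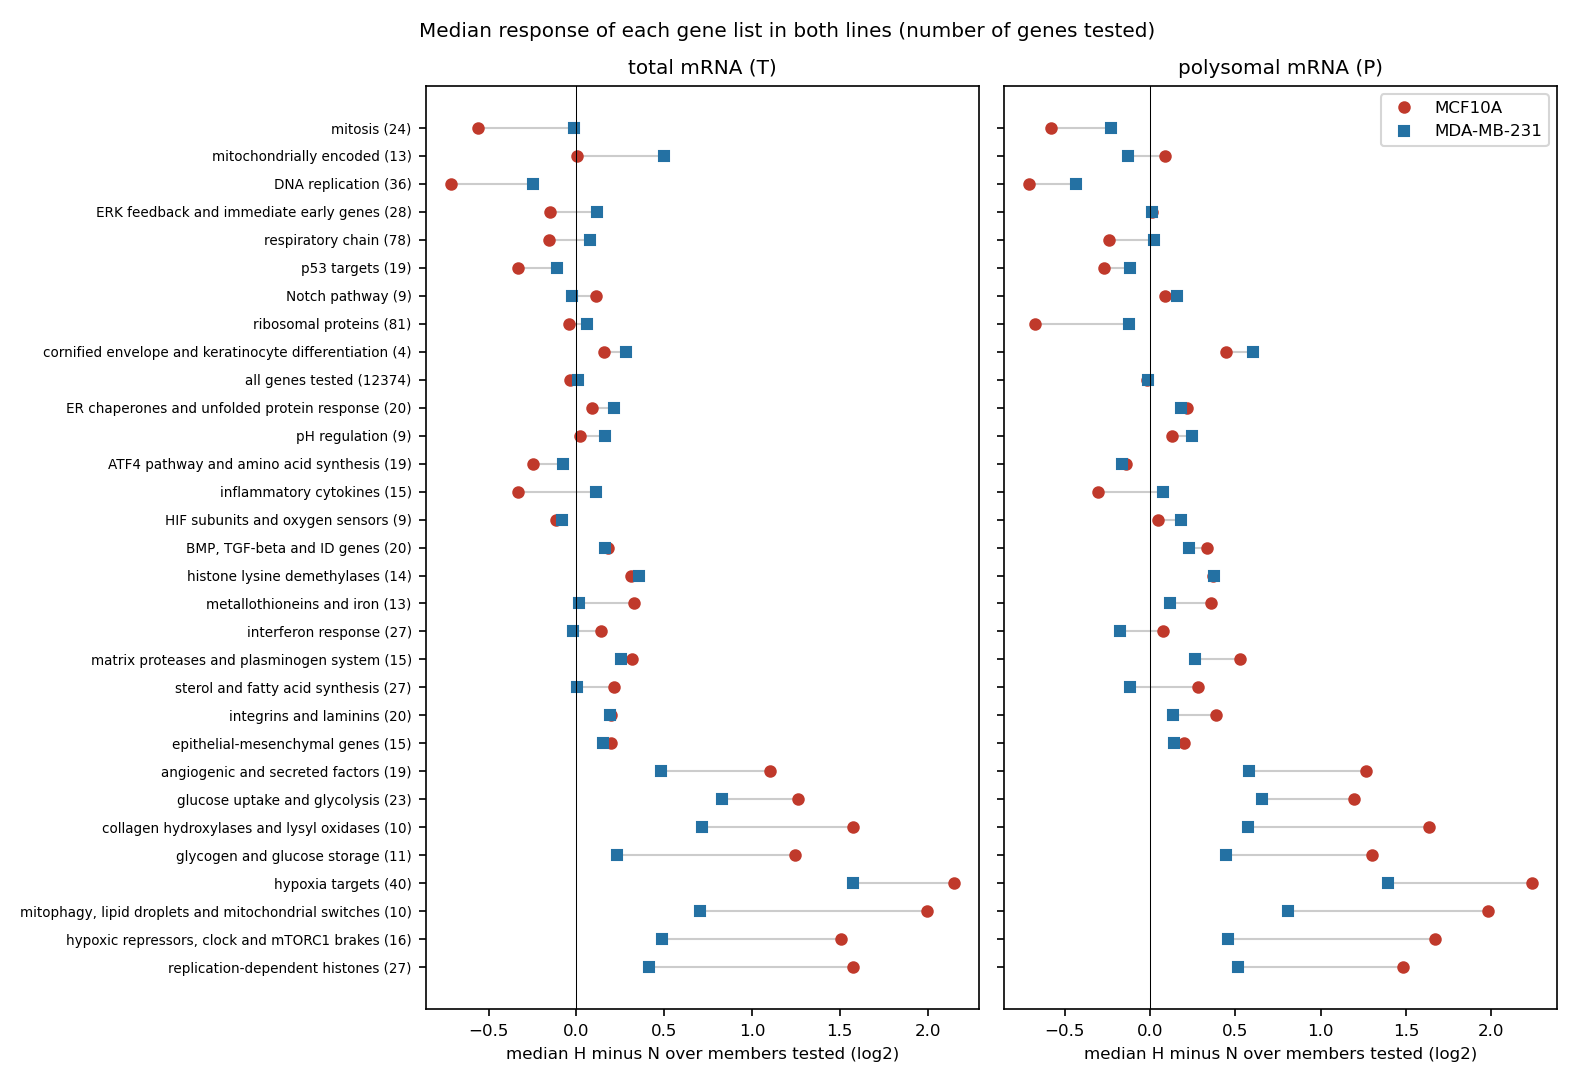
Median log2 fold change of H over N in MCF10A (circles) and MDA-MB-231 (squares) for each gene list, with the number of genes tested, in T (left) and P (right). The 40 hypoxia targets have the highest median in both lines, and mitosis and DNA replication genes lie further below zero in MCF10A than in MDA-MB-231.

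Genes that passed the expression filter in 1 line only have no line difference and were tested for H against N in that line alone. Among 750 genes tested in MCF10A only, 31 rose and 1 fell in T, and 23 rose and 1 fell in P. Over all 13124 genes of that fit 1.39% rose and 0.145% fell in T, and 1.33% and 0.16% in P. A gene near 0 under N could enter through its H libraries alone, which favours rises, and 2 of the 31 and 1 of the 23 were at 0 in both N libraries. JAM2, a junctional adhesion molecule, was 0.687 and 0.914 CPM under N and 12.4 and 17.3 CPM under H in T. TREM1, a myeloid receptor, was 0.209 and 0.192 CPM and then 10.8 and 11.2 CPM, and ALOX15B, a lipoxygenase, 8.66 and 9.11 CPM and then 69.2 and 105.4 CPM. These 3 rose in both fractions and stayed at or below 0.238 CPM in every MDA-MB-231 library of T. PTPRN, a dense-core vesicle protein, was at 0 in the MCF10A N libraries of P and rose at least 34.2-fold.

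Among 1136 genes tested in MDA-MB-231 only, 10 rose and 2 fell in T, and 19 rose and 3 fell in P, where 0.977% and 0.289% of all 13510 genes of that fit did so in T and 1.78% and 0.511% in P. VIPR1, a receptor for vasoactive intestinal peptide, fell from 179 and 144 CPM to 52.0 and 50.2 CPM in T, a log2FC of −1.68 ± 0.14 (adjusted p 2e-05 in edgeR). MMP1, an interstitial collagenase, rose from 211 and 249 CPM to 465 and 649 CPM in T, and SNTB1, a syntrophin, fell from 27.5 and 25.2 CPM to 13.5 and 13.4 CPM. RIMKLA, a ligase that makes N-acetylaspartylglutamate, rose in both fractions, with a log2FC of 2.07 ± 0.36 in T and 2.56 ± 0.38 in P (adjusted p 0.00941 and 0.00272). VIPR1 and MMP1 were at or below 0.0481 CPM in the MCF10A libraries of T.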

How the data were processed

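RNA-seq of total and polysomal mRNA was made from poly(A)-selected libraries of both lines. The deposited values are expected counts per gene, which the authors obtained with STAR and RSEM on GENCODE annotation and rounded to whole numbers, with replicates kept apart. The paper's methods name GRCh38 and the submitters' processing notes name GRCh37, so no coordinate was taken from the count tables, and promoters were matched by symbol. One promoter window and one marker gene are not reported here. RSEM divides reads between similar genes by estimate, which makes near-identical copies uncertain.

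Protein-coding genes (19815 of 60554, 97.4 to 99.2% of counts) kept by filterByExpr in each line were tested with edgeR 4.0.16 in R 4.3.3 (TMM scaling, quasi-likelihood F test, Benjamini-Hochberg adjustment, threshold 0.05) in a model of 16 groups over 32 libraries with 16 residual degrees of freedom. The contrast was the H minus N change in MDA-MB-231 minus that in MCF10A, for T, for P and for P minus T (Te). Library separation used log2 CPM with a prior count of 2. Replicates are labelled as biological, and 2 in each group give an exact permutation test of 8 libraries a smallest p of 0.0556. Alternatives included DESeq2 1.42.0 and limma 3.58.1 (voom), other filters and scalings, thinned counts, replicate blocks and leaving out each library. The script was tested on simulated data.

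Genes were named by this rule: called genes with separated libraries and the 10 largest differences in each direction and fraction, the 8 called in both fractions with the smallest adjusted p in each direction, the called members of each of 36 gene lists (up to 4, or the largest difference where none was called), CA9, NDRG1 and VEGFA, and in genes tested in 1 line the 5 with the smallest adjusted p. Other called genes were added after their values were seen. The comparison, the lists and the named genes were chosen with earlier results of these data known.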

Additional observations from a re-analysis of the deposited data

Results flagged for a closer look

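The response to hypoxia differed between the lines for 39 genes in T and for 53 genes in P, by the test of the difference itself, and these are the genes described above. Among 2753 non-coding genes, which the comparisons above leave out, 1 gene was called in T and 1 in P when all gene classes were tested together. CTD-2354A18.1, a processed transcript, was 0.0597 and 0 CPM under N and 1.86 and 1.91 CPM under H in MCF10A T, and 21.5 and 20.2 CPM and then 65.4 and 43.1 CPM in MDA-MB-231 T. Its libraries stood higher under H in both lines, and the line difference was −4.53 ± 0.80 on the log2 scale (edgeR adjusted p 0.0168). RP5-1120P11.1, annotated as antisense, was 0.115 and 0.0683 CPM and then 1.28 and 0.452 CPM in MCF10A P, and 3.68 and 2.49 CPM and then 2.54 and 2.32 CPM in MDA-MB-231 P. Its difference was −3.56 ± 0.62 (edgeR adjusted p 0.0118), and since the libraries do not mark strand its reads cannot be told apart from those of a gene on the other strand.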

How the results depend on the processing

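The share of genes called was 0.315% in T (39 genes) and 0.428% in P (53). The count stayed within 1.5 times these under other size factors and filters and with all gene classes. It did so too in separate fits of each line and with the PP242 libraries left out of the fit. No called gene turned its direction under any of the 24 alternatives, though those that only changed the threshold could not turn it. DESeq2 called 0.962% in T and 1.06% in P (119 and 131 genes, 38 and 53 of them shared), limma voom 0.194% and 0.21%, an adjusted p under 0.10 gave 0.477% and 0.719%, and counts thinned to the smallest library 0.178% and 0.218%. The fit of only the 8 libraries of each contrast called 58 genes in T and 0 in P, where 631 genes had an unadjusted p under 0.05. Leaving out 1 library gave 0.0727% to 0.145% in T and 0.097% to 0.283% in P. In T the counts were 11 and 9 without the MCF10A N replicates 1 and 2, 16 and 14 without those of MCF10A H, 14 and 18 without those of MDA-MB-231 N, and 17 and 18 without those of MDA-MB-231 H. In P they were 21 and 33, 35 and 22, 13 and 30, and 25 and 12, in the same order. Te stayed at 0 calls throughout.

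A replicate block within each line raised the calls to 0.558% in T and 0.824% in P, and a replicate block within each line and fraction to 0.84% and 1.2%, with all 39 and 53 reported genes among them. The labels do not say that a replicate number marks a shared day. Deviations of same-numbered N and H libraries correlated at 0.36 and 0.66 in MCF10A T and P and at 0.22 and 0.27 in MDA-MB-231. With 2 numbers in each group and no label for what a number marks, these correlations cannot settle whether the numbers pair the libraries. The libraries were not taken as pairs, and statements that a gene was not called hold for the fit without a block.

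With 2 libraries in each group, no line difference under 1 on the log2 scale was called, and a missed call does not show equal responses. The causes of these shifts were not tested.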
